A study of Mus musculus with 2 samples.

Results

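The genes described here are 49 homeobox genes outside the *Hox* clusters that encode developmental transcription factors. They were taken by name, as a list, and not by any measured value, though earlier results of these data were known by then. They were compared with all 21938 protein-coding genes of the GENCODE vM21 annotation of GRCm38 and with 54 other non-*Hox* homeobox genes. For each gene, a promoter peak was a peak whose centre lay within 3 kb of any annotated transcription start site (TSS). The region of a gene was its body with 10 kb upstream of it. The 49 genes had 50 distinct promoter peaks in one list and 70 in the other, and 114 and 145 distinct peaks when promoters and gene regions were combined.

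The study measured chromatin accessibility by ATAC-seq, in which a transposase inserts sequencing adapters into open DNA, in the organ of Corti of P2 mice. There was 1 library from WT mice and 1 library from *Bmi1* KO mice, which carry a germline knockout of the gene (*Bmi1*-/-), and each library was made from the pooled cochleae of several mice. The mice were on a C57BL/6J background. With 1 library per genotype no difference could be set against the spread between animals, and no test between genotypes was made.

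After peaks on unplaced sequences were left out, 77596 peaks remained in the WT-labelled list and 100431 in the *Bmi1* KO-labelled list, 1.29 times as many. The commonest local background, solved from the deposited values, was 6.32 reads in the former and 8.04 in the latter, which is 1.27 times as high, so the libraries also differed in depth or background. All peak names in the WT-labelled list carry a knockout prefix and all names in the KO-labelled list a wild-type prefix. The genotype in GEO's labels was kept, and every direction below rests on it. At *Bmi1* itself there was 1 promoter peak in the WT-labelled list, at percentile 40.1 of that list, and there were 4 in the KO-labelled list, the strongest at percentile 92.0. Where these peaks lie relative to the deleted part of the gene is not given in the sources used here, so they do not check the labels. Of 10 hair cell markers, 8 and 9 had a promoter peak in the WT- and KO-labelled lists, as did 9 and 9 of 10 supporting cell markers. Promoter peaks were also found at markers of other cells, with 3 and 4 of 5 for neurons, 2 and 3 of 5 for glia and 3 and 4 of 5 for mesenchyme. For endothelium there were 3 and 3 of 5, and for blood and macrophages 1 and 1 of 5. Over all 21938 protein-coding genes, 12956 and 14960 had a promoter peak, so these counts alone do not show which cells were present. The share of such cells in each library was not tested.

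Homeobox genes encode proteins that bind DNA through a homeodomain, and they set regional and cell identity in embryos. Many of them start in CpG islands, stretches rich in unmethylated CpG. In cells that do not use these genes, Polycomb group complexes typically occupy the islands and hold the genes silent. BMI1 is a core subunit of Polycomb repressive complex PRC1, which places ubiquitin on histone H2A and compacts chromatin. The genes fall into the NKL, HOXL, LIM, PRD, SINE and TALE classes, named for the kind of homeodomain and the domains beside it.

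The reference sequences at 5 of the summits described below, and at 1 gene without a promoter peak, show what kind of DNA was open. Each window of GRCm38 is given on the gene's strand, 5′ to 3′, with every CpG in capitals. Where a label names a strongest promoter peak, it is the strongest of that gene in that list. It spans 201 bases, centred on the summit unless it would then reach the start of the gene. For *Irx2* and *Uncx* it ends 1 base before the gene.
Irx5, chr8:92356128-92356328, plus strand, upstream, at the strongest promoter peak of the WT-labelled list: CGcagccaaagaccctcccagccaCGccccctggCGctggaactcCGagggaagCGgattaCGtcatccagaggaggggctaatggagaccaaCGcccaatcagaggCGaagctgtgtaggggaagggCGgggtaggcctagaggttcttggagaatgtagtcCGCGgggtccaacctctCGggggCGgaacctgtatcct
Irx2, chr13:72628619-72628819, plus strand, upstream, at the strongest promoter peak of the KO-labelled list: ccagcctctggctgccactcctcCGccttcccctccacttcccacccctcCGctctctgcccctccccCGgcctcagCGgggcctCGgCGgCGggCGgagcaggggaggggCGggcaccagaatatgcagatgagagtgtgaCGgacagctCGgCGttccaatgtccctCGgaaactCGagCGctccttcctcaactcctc
Nkx6-1, chr5:101665318-101665518, minus strand, upstream, at a peak present in both lists: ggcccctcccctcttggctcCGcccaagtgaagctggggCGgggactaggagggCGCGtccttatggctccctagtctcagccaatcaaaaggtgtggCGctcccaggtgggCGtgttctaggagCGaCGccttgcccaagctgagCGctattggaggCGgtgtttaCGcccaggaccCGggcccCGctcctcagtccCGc
Lmx1a, chr1:167689333-167689533, plus strand, intron, at a peak present in both lists: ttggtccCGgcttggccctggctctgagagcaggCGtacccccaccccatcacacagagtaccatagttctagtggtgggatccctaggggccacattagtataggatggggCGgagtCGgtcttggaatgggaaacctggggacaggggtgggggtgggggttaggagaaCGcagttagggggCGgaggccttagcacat
Lbx1, chr19:45236453-45236653, minus strand, upstream, at the strongest WT-labelled promoter peak without a counterpart: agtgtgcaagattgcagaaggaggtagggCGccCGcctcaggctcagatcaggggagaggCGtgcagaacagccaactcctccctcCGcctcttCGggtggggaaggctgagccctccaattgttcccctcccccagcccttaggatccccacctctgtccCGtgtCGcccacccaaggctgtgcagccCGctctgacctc
Uncx, chr5:139543293-139543493, plus strand, upstream, no promoter peak in either list: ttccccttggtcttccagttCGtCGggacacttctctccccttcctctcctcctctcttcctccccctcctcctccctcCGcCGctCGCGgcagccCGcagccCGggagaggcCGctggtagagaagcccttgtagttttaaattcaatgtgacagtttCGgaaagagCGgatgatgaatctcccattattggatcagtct
The *Irx2* window held 15 CpG, that of *Nkx6-1* 14 and that of *Irx5* 13, and each of these held 2 matches to GGGCGG, counted on both strands. The *Lmx1a* window also held 2 such matches, with 6 CpG, while the *Lbx1* window held 8 CpG and no GGGCGG. The *Uncx* window held 11 CpG and no GGGCGG, and it lay in no promoter peak. Only 1 window thus lacked a promoter peak, and the windows lie at different places of their genes. How CpG number relates to the presence of a peak was therefore not tested with them.

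The 49 promoters were rich in CpG. Over 1 kb centred on the 5′ end of the gene, the median GC content was 60.7% and the median ratio of observed to expected CpG was 0.72, against 54.8% and 0.55 over all protein-coding genes. With a ratio of at least 0.6 and a GC content of at least 55%, 34 of the 49 genes (69.4%, 95% exact binomial interval 54.6% to 81.7%) were CpG-rich, against 38.4% of all. These 8426 CpG-rich protein-coding genes served as a further comparison, which was added after the data had been seen. From 250 bases before to 50 after the start, GGGCGG occurred on either strand in 30 of the 49 promoters (61.2%, against 43.0% of all promoters and 75.8% of CpG-rich ones). CCAAT occurred in 20 (40.8% against 39.0%), TATAAA in 5 (10.2% against 12.6%) and TAATTA, a homeodomain core motif, in 3 (6.12% against 5.30%). These are matches of letters only.

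Of the 49 genes, 28 had a promoter peak in both lists (57.1%, interval 42.2% to 71.2%, against 53.0% of all protein-coding genes). In 10 genes there was a promoter peak only in the KO-labelled list (20.4%, interval 10.2% to 34.3%, against 15.2% of all). These were *Dlx4*, *Emx2*, *Hmx3*, *Evx2*, *Lhx4*, *Alx4*, *Otx2*, *Six3*, *Irx1* and *Irx3*. In 7 genes it was only in the WT-labelled list (14.3%, interval 5.94% to 27.2%, against 6.10% of all), namely *En1*, *Nkx2-5*, *Lhx2*, *Lhx3*, *Lmx1b*, *Otx1* and *Irx4*. The 4 genes *Nkx6-2*, *Evx1*, *Gbx1* and *Uncx* had none in either list (8.16%, interval 2.27% to 19.6%, against 25.7% of all). Genes with a peak in 1 list only thus numbered 10 and 7 here, and 3342 and 1338 over all protein-coding genes. With equal numbers of peaks from the lists the order turned, to 8 genes in the KO-labelled list only and 9 in the WT-labelled list only, whereas over all protein-coding genes the shares were 13.2% and 8.13%. The comparison with all genes also turned with a TSS window of 1 kb, where 32.7% of the 49 genes and 43.4% of all had a promoter peak in both lists. The intervals cover counting error only. All deposited peaks were counted, and only 52.4% of the WT-labelled and 62.8% of the KO-labelled peaks had a q below 0.05. Some of the calls above were therefore weak. Among genes with a peak in 1 list only, the strongest promoter peak had a −log10 q as low as 0.844 (*Evx2*, KO-labelled) and 0.929 (*Lmx1b*, WT-labelled). Among those with peaks in both lists it was as low as 0.632 (*Gsx1*, KO-labelled).

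Set beside CpG-rich genes, a smaller share of the homeobox genes had a promoter peak in both lists. Of the CpG-rich genes 81.6% had one in both lists, 12.6% in the KO-labelled list only, 2.56% in the WT-labelled list only and 3.19% in neither. The 54 other non-*Hox* homeobox genes were divided much like the 49, with 28 in both lists, 13 in the KO-labelled list only, 5 in the WT-labelled list only and 8 in neither.

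**Figure D1:**
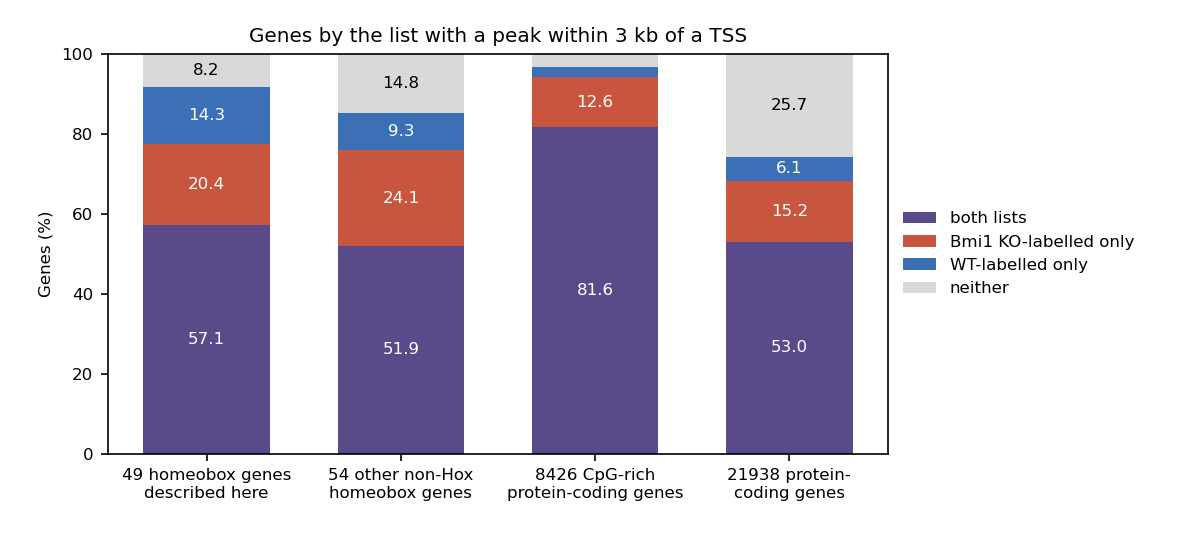
Stacked bars give the percentage of genes (vertical axis) with a peak centre within 3 kb of a TSS in both lists, in 1 list only or in neither, for the 49 homeobox genes, the other non-*Hox* homeobox genes, CpG-rich genes and all protein-coding genes. Both homeobox sets have smaller both-list segments, 57.1% and 51.9%, than the 81.6% of CpG-rich genes.

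The strength of a peak was given as the percentile of its −log10 p within its own list, because the lists have no common scale. In bulk tissue, a site open in fewer cells and a site less open in each cell cannot be told apart. The strongest promoter peak per gene had a median percentile of 56.8 over the 35 homeobox genes with one in the WT-labelled list, and of 73.4 over the 38 in the KO-labelled list. Over all protein-coding genes that had one the medians were 76.8 and 87.3, and those of CpG-rich genes 84.4 and 93.0. By this rank the strongest promoter peaks of the homeobox genes lay below those of either comparison in both lists. The genes also had fewer annotated TSS to hold a peak, with a median of 2 against 3 over all protein-coding genes and 5 over CpG-rich genes, and the part of this in the ranks was not tested. Over all promoter peaks, not only the strongest per gene, the gap was smaller. Their median percentile was 51.4 against 56.8 in the WT-labelled list and 52.6 against 65.4 in the KO-labelled list, and their median fold enrichment 2.51 against 2.51 and 2.32 against 2.40. The medians of the 54 other homeobox genes were 73.8 and 69.3, the former above and the latter below that of the 49.

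Few of the genes were among the strongest peaks. In the WT-labelled list 4 of the 49 genes (8.16%, interval 2.27% to 19.6%) had a promoter peak among the strongest 10% of the list. This compares with 18.3% of all protein-coding genes, which lies inside the interval, and 33.4% of CpG-rich genes. They were *Irx5*, *Lbx1*, *Irx2* and *Nkx6-1*. In the KO-labelled list there were 6 (12.2%, interval 4.63% to 24.8%, against 30.6% and 56.0%), *Irx5*, *Irx2*, *Lhx6*, *Nkx6-1*, *Dlx2* and *En2*. Of the 54 other homeobox genes, 11 (20.4%) had such a peak in each list. Of the 49 genes, the 3 genes *Irx5*, *Irx2* and *Nkx6-1* were among the strongest in both lists. A −log10 q of at least 5 was reached by 1 gene in the WT-labelled list, *Irx5*, and by 3 in the KO-labelled list, *Irx5*, *Irx2* and *Lhx6*, against 4.17% and 17.6% of all protein-coding genes. In reads, the strongest promoter peaks of the 49 genes had a median of 19 at the summit in the WT-labelled list and 24 in the KO-labelled list, against 22 and 28 over all protein-coding genes. The median fold enrichment over local background was 2.56 and 2.43, against 2.70 and 2.68.

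**Figure D2:**
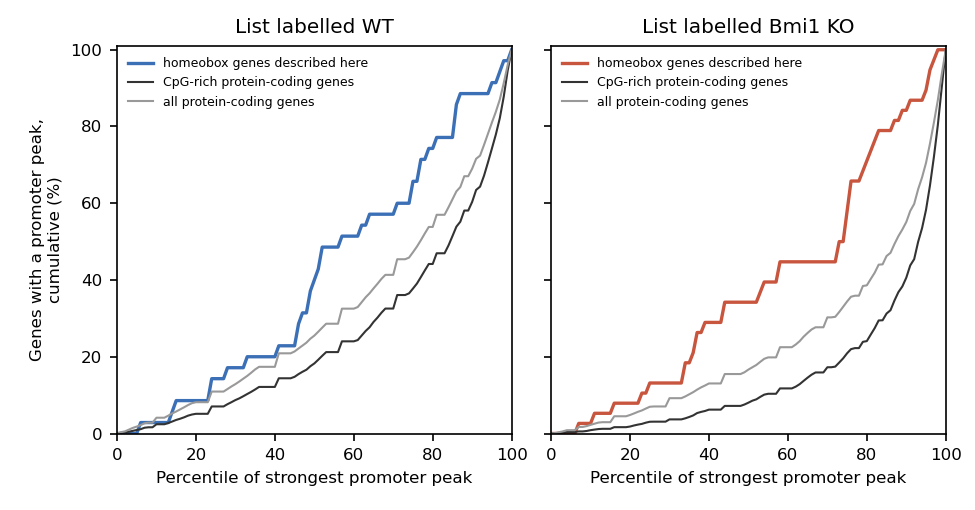
Each curve gives the cumulative percentage of genes with a promoter peak (vertical axis) whose strongest promoter peak lies at or below a percentile of its own list (horizontal axis), for the WT-labelled list (left) and the KO-labelled list (right). At percentile 50 the homeobox genes stand at 40.0% and 34.2%, and all protein-coding genes at 25.5% and 16.7%.

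Of the 45 homeobox genes that had a promoter peak in at least 1 list, 27 ranked higher in the KO-labelled list (60.0%, interval 44.3% to 74.3%), against 68.6% of 16298 protein-coding genes. The share was near the background, which lies inside its interval. For the 17 genes with a promoter peak in 1 list only, the order was fixed by that presence. Of the 28 genes with one in both lists, 17 ranked higher in the KO-labelled list (60.7%, interval 40.6% to 78.5%), against 67.5% of all such protein-coding genes, which also lies inside the interval. When peaks were ranked by summit reads instead, an alternative added after the data had been seen, the counts were 28 of 45 (62.2%) against 68.5%.

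**Figure D3:**
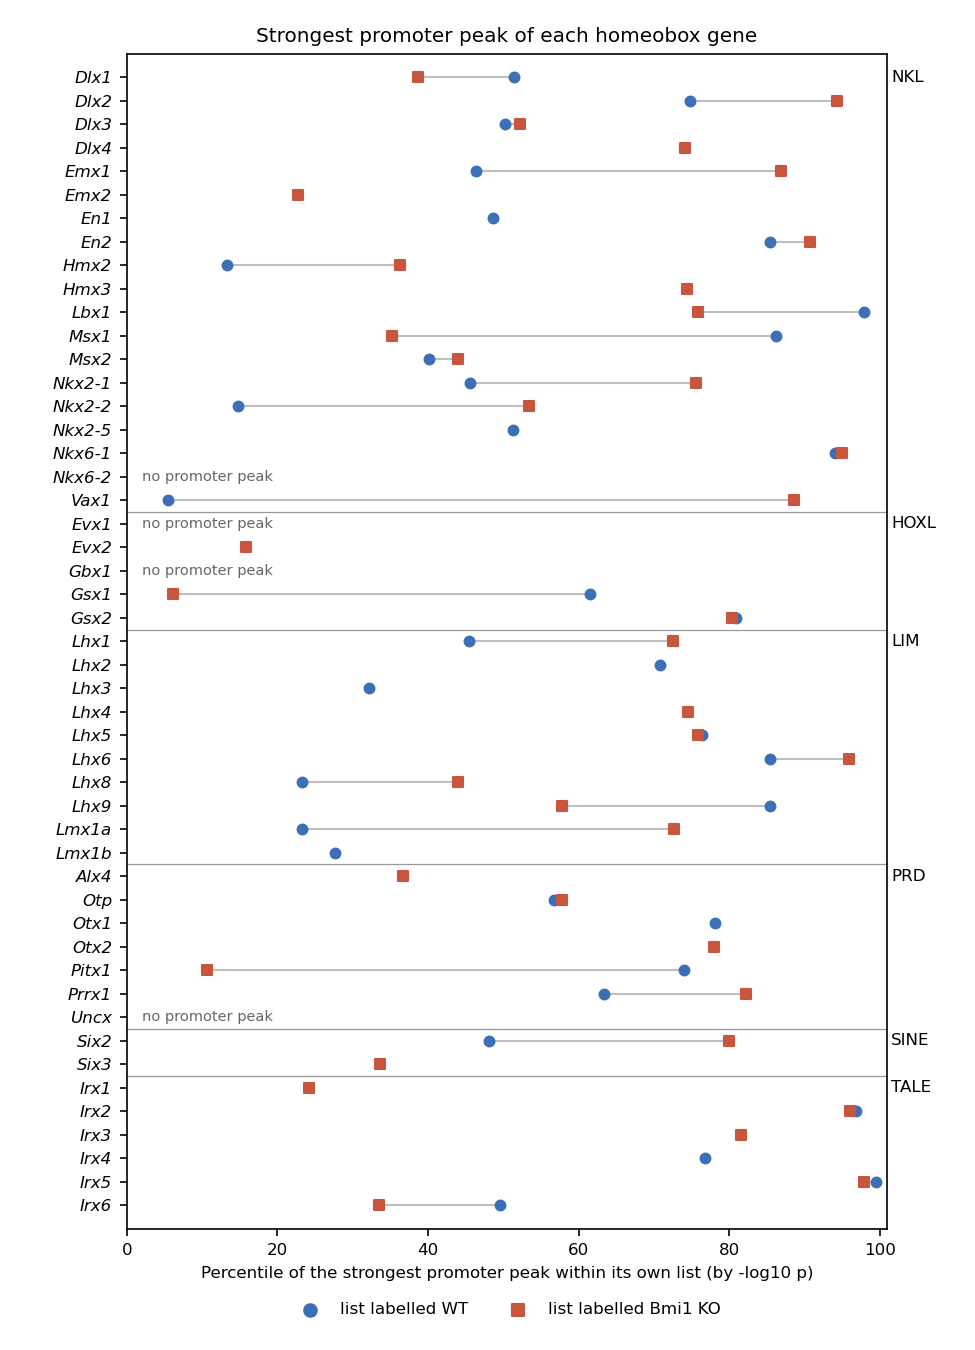
The horizontal axis gives the percentile of the strongest promoter peak within its own list, for each of the 49 genes grouped by homeobox class, with circles for the WT-labelled and squares for the KO-labelled list. *Irx5*, *Irx2* and *Nkx6-1* lie beyond percentile 90 in both lists, and 4 genes have no promoter peak.

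The TALE class is represented by the Iroquois genes, which pattern the embryo along its axes and lie in a cluster on chromosome 8 (*Irx3*, *Irx5*, *Irx6*) and another on chromosome 13 (*Irx1*, *Irx2*, *Irx4*). All 6 were CpG-rich. *Irx5* (chr8:92357625-92376286, plus strand) held the strongest promoter peak of the 49 genes in both lists. In the WT-labelled list it spanned chr8:92355765-92356967, with 40 reads at the summit (95% Poisson interval 28.6 to 54.5) over a background of 9.80, a −log10 q of 8.52 and enriched 3.80 times. This peak was upstream of *Irx5*, and the nearest TSS, 246 bp away, was that of *Crnde*, a noncoding gene transcribed from the same region. In the KO-labelled list the strongest peak was instead at chr8:92357421-92358032, with its summit in the 5′ UTR, 47 reads (34.5 to 62.5) over 14.9, a −log10 q of 7.13 and enriched 3.02 times.

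Both sites of *Irx5* were open in both lists, but their order differed. At the upstream site the summit held 40 reads in each list, over backgrounds of 9.80 and 14.3. At the 5′ UTR site it held 29 reads (19.4 to 41.6) over 10.4 in the WT-labelled list and 47 over 14.9 in the KO-labelled list. The intervals of the 5′ UTR summits overlap. The strongest peaks of *Irx5* therefore did not overlap each other, although each had a counterpart in the other list. The gene region held 2 peaks in the WT-labelled list and 9 in the KO-labelled list, 4 of the latter in introns.

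*Irx2* had a peak across its start in both lists. Its strongest peak held 30 reads over 9.24 at percentile 96.8 of the WT-labelled list, and 38 over 12.3 at percentile 96.1 of the KO-labelled list, where the peak was 998 bp wide and reached a −log10 q of 5.34. The places in the lists were nearly the same. *Irx6* lay lower, at percentile 49.6 and 33.5, with overlapping peaks upstream of the gene. *Irx3* had promoter peaks only in the KO-labelled list, the strongest at percentile 81.5 with 35 reads over 14.8, and *Irx1* only there at percentile 24.3. *Irx4* had its promoter peak only in the WT-labelled list, at percentile 76.8, 773 bp wide, with 20 reads over 6.54. The local background behind the *Irx3* and *Irx5* promoter peaks in the KO-labelled list, 14.3 to 14.9 reads, was well over the commonest 8.04 of that list, and its part in their ranks was not tested.

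The LIM class holds genes with LIM domains for protein binding, among them regulators of motor neuron and forebrain identity. Among its 10 genes, promoter peaks were present in both lists for 6, in the WT-labelled list alone for 3 and in the KO-labelled list alone for 1. *Lhx6*, known from cortical interneurons, had the highest rank of the class, with 22 reads over 7 at percentile 85.5 in the WT-labelled list and 34 over 10.4 at percentile 95.9 in the KO-labelled list. These overlapping peaks lay within the gene and not at its first start, about an internal start that is 2894 and 2815 bp from the summits. *Lhx9* had its strongest WT-labelled peak at −324 bp from its start, at percentile 85.5, and in the KO-labelled list its strongest was at percentile 57.8, further upstream. *Lhx5* stood at percentile 76.5 and 75.9, with peaks at different places. *Lhx1* was at 45.4 and 72.6, and *Lhx8* at 23.3 and 44.0.

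*Lhx4* and *Lhx2* stood opposite to each other. *Lhx4*, which acts in the pituitary and in motor neurons, had 5 promoter peaks in the KO-labelled list, at percentiles up to 74.5, and none in the WT-labelled list. *Lhx2*, which acts in the eye and forebrain, had 3 in the WT-labelled list, at percentiles up to 70.8, and none in the KO-labelled list. None of these 8 peaks overlapped a peak of the other list. *Lhx3*, which hair cells express, had 2 promoter peaks in the WT-labelled list, the stronger at percentile 32.2, and none in the KO-labelled list.

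The LIM genes *Lmx1a* and *Lmx1b* are close relatives of which the former acts in the otic vesicle. They held the most peaks in their regions, in opposite lists. They are also the longest of the 49 genes, whose median length was 6858 bp, and these counts were not scaled by length. The region of *Lmx1a* (chr1:167689237-167848741, plus strand) held 9 peaks in the WT-labelled and 19 in the KO-labelled list, most of them intronic. The region of *Lmx1b* (chr2:33560965-33640511, minus strand) held 13 and 7. Of the WT-labelled peaks, 5 of the 9 at *Lmx1a* and 1 of the 13 at *Lmx1b* overlapped a KO-labelled peak. At its promoter *Lmx1a* had overlapping peaks, with 16 reads over 6.32 at percentile 23.3 and 25 over 9.68 at percentile 72.6. *Lmx1b* had 2 promoter peaks in the WT-labelled list only, the stronger at percentile 27.6.

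The NKL class, the largest with 19 genes, includes the distal-less, engrailed, *Msx* and *Nkx* genes. A promoter peak was present in both lists for 13 of them, in the KO-labelled list only for 3 and in the WT-labelled list only for 2. *Nkx6-1*, a regulator of ventral spinal neurons and beta cells, had overlapping peaks upstream of its start, with 25 reads over 7.44 at percentile 94.0 and 36 over 12.1 at percentile 95.01. *Lbx1*, which acts in migrating muscle precursors, had the strongest WT-labelled promoter peak that overlapped none in the other list. It spanned chr19:45236373-45236801, at −741 bp from the start, with 27 reads over 7.04, a −log10 q of 4.55 and percentile 97.9. The only KO-labelled promoter peak of *Lbx1* lay in the 3′ UTR, at percentile 75.8. Next among the WT-labelled peaks of this kind was that of *Msx1* just upstream of its start, at percentile 86.2, while a different *Msx1* peak, in the gene, overlapped between lists and stood at percentile 48.4 and 35.2.

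In the KO-labelled list the strongest NKL peaks without an overlap were those of *Vax1* and *Emx1*. The *Vax1* peak, at percentile 88.6 with 25 reads over 8.04, lay downstream of the gene and 2727 bp from the nearest start, while the strongest WT-labelled peak of the gene stood at percentile 5.49. The *Emx1* peak, at percentile 86.9 with 27 reads over 9.34, had its summit in the 5′ UTR, and the WT-labelled peak of *Emx1* stood at percentile 46.3 further upstream. *Dlx2* had the widest KO-labelled promoter peak of the 49 genes, 1053 bp, at percentile 94.3 with 31 reads over 9.72. A WT-labelled peak of 19 reads at percentile 30.0 overlapped it. The strongest WT-labelled promoter peak of *Dlx2* was another, at percentile 74.7, which overlapped no KO-labelled peak. *En2* had overlapping peaks at percentile 85.5 and 90.8 in its intron, whereas *En1* had a promoter peak in the WT-labelled list only, at percentile 48.6.

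Of the remaining NKL genes, *Dlx1* was at percentile 51.4 and 38.6, *Nkx2-1* at 45.6 and 75.5, and *Nkx2-2* at 14.8 and 53.4. *Dlx4* had a peak in the KO-labelled list only, at 74.2, and *Nkx2-5* in the WT-labelled list only, at 51.3. *Nkx6-2* had no promoter peak, but a pair of overlapping peaks at −4339 and −4317 bp stood at percentile 73.9 and 93.7, with 24 reads over 9.10 and 34 over 11.8. The absence of a promoter peak at this gene thus depended on the 3 kb limit.

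The PRD and SINE classes hold 7 and 2 of the genes. *Prrx1*, a gene of limb and craniofacial mesenchyme, had overlapping peaks at percentile 63.3 and 82.2, with 19 reads over 6.66 and 27 over 9.88. *Six2*, of kidney and craniofacial progenitors, had them at percentile 48.1 and 79.97, with 22 reads over 8.98 and 31 over 12.7. *Otp*, of the hypothalamus, was at percentile 56.8 and 57.8 with peaks in different places. *Pitx1*, of the hindlimb, was at percentile 74.0 and 10.6, with peaks at different sites. *Alx4* and *Six3* had peaks in the KO-labelled list only, at percentile 36.6 and 33.6. *Uncx*, the gene whose upstream sequence is printed above, had its nearest peak at −3041 bp in the KO-labelled list, at percentile 87.1, and peaks in a coding exon beyond 3 kb in both lists.

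The HOXL class, relatives of the clustered *Hox* genes, had promoter peaks at 3 of its 5 genes. *Gsx2*, of the forebrain, had the highest rank, with 20 reads over 6.32 at percentile 81.0 in an intron in the WT-labelled list and 24 over 8.52 at percentile 80.4 in the 5′ UTR in the KO-labelled list. The peaks did not overlap, so equal ranks came from different places. *Gsx1* was at percentile 61.5 and 6.15, and *Evx2* had a KO-labelled peak at percentile 15.8. *Evx1* had overlapping peaks upstream, at −7442 and −7253 bp, which stood at percentile 32.0 and 91.4, and *Gbx1* had a single intronic peak, in the KO-labelled list at percentile 33.4.

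Among the 8 genes known from the otic epithelium there was no promoter peak among the strongest 10% of either list. Over all protein-coding genes the shares were 18.3% and 30.6%, and 8 genes are too few to be set apart from them. *Dlx3*, of the otic placode, *Hmx2*, of the vestibular system, and *Lmx1a* had promoter peaks in both lists. *Dlx3* had 22 reads over 8.82 at percentile 50.2 and 26 over 11.3 at percentile 52.2, and *Hmx2* had 17 reads over 7.42 at percentile 13.3 and 20 over 8.34 at percentile 36.3. *Emx2*, which sets hair bundle orientation, *Hmx3*, a partner of *Hmx2* beside it on chromosome 7, and *Otx2* had them in the KO-labelled list only. Their summits held 21 reads over 9.52, 24 over 8.84 and 23 over 8.04, at percentiles 22.7, 74.4 and 78.0. *Lhx3* and *Otx1*, which acts in the cochlea and semicircular canals, had them in the WT-labelled list only, with 18 reads over 7.14 and 24 over 8.58, at percentiles 32.2 and 78.2. Over all protein-coding genes 15.2% had a promoter peak in the KO-labelled list only and 6.10% in the WT-labelled list only. The weakest promoter peaks of the 49 genes held 15 reads in the WT-labelled list and 17 in the KO-labelled list. The 5 otic epithelium genes with a promoter peak in 1 list only had 18 to 24 reads at the summit, and *Irx3* had 35.

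Of the 6 genes known from mesenchyme, 5 had a promoter peak in both lists and *Alx4* in the KO-labelled list only, against 53.0% and 15.2% of all protein-coding genes. *Msx2* had overlapping peaks at percentile 40.1 and 44.0, with 17 and 20 reads. None of the 6 was among the strongest 10% of either list, against 18.3% and 30.6% of all protein-coding genes. The 6 genes are too few to be set apart from these shares.

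Most promoter peaks of the homeobox genes had no counterpart in the other list. At least 1 bp was shared by 20 of 50 WT-labelled peaks (40.0%, interval 26.4% to 54.8%, against 48.8% of all promoter peaks) and by 20 of 70 KO-labelled peaks (28.6%, interval 18.4% to 40.6%, against 36.6%). The intervals of the shares include the values over all promoter peaks. Of the 28 genes with promoter peaks in both lists, 15 (53.6%, interval 33.9% to 72.5%) had any that overlapped, against 76.3% of all such protein-coding genes. The strongest peaks of both lists overlapped in 10 of the 28 (35.7%, interval 18.6% to 55.9%, against 55.3% of all, which lies inside the interval). Among the other homeobox genes with promoter peaks in both lists, 18 of 28 (64.3%) had any overlap. Their strongest peaks overlapped in 5 of 28 (17.9%). Here and over all protein-coding genes, a gene counted as present in both lists thus often had its strongest peaks at different places.

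At the 10 genes of the 49 whose strongest peaks overlapped, the peaks had nearly the same enrichment. The ratio of fold enrichment, KO-labelled over WT-labelled, ran from 0.855 at *Irx6* to 1.07 at *Nkx2-2* and *Lhx6*, with a median of 0.99 against 1.05 over all 6427 such protein-coding genes. None of the 10 reached 1.5 (3.95% of all did) and none fell to 1/1.5 or less (0.467% of all). The ratio of summit reads over background was 0.958 at *Prrx1* (95% interval 0.513 to 1.82), 1.02 at *Lmx1a* (0.524 to 2.05) and 0.887 at *Nkx6-1* (0.518 to 1.54). Over the 10 genes the intervals reached from 0.429 at *Irx6* to 2.11 at *Nkx2-2*, and differences within them were not detectable at this depth.

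**Figure D4:**
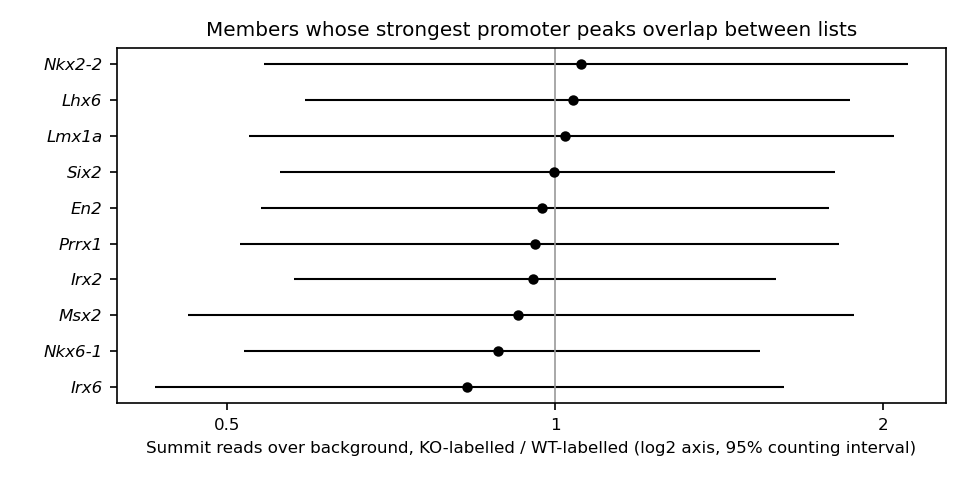
Points give the ratio of summit reads over local background, KO-labelled over WT-labelled, on a log2 axis for the 10 genes whose strongest promoter peaks overlapped, and bars give 95% intervals for counting error. All 10 intervals include 1.

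The homeobox peaks lay farther from a start of their own gene set than promoter peaks in general, and the genes had fewer annotated starts, as given above. The median distance from the summit to the nearest TSS of any gene in the set was 739 bp in the WT-labelled and 840.5 bp in the KO-labelled list. Over all protein-coding genes it was 410 and 377 bp. That larger set also counts starts of neighbouring genes, which the homeobox set mostly leaves out, and the part of this in the gaps was not tested. Within 500 bp there were 40.0% and 32.9% of the peaks, against 54.1% and 55.6%. A TSS was covered by 11 of 50 WT-labelled peaks (22%, interval 11.5% to 36.0%, against 34.3%) and by 10 of 70 KO-labelled peaks (14.3%, interval 7.07% to 24.7%, against 40.0%). At the 54 other homeobox genes a TSS was covered by 17.5% and 17.8% of the promoter peaks, and the median distances were 572 and 487 bp. In the WT-labelled list 18 summits were upstream of the gene, 5 in a 5′ UTR, 14 in coding exons and 10 in introns. In the KO-labelled list 24 were upstream, 8 in a 5′ UTR, 11 in coding exons and 21 in introns. The rest were in 3′ UTRs, noncoding exons or downstream, and for 7 and 11 peaks the nearest TSS belonged to another gene.

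The strongest promoter peaks were narrower than those of all protein-coding genes and of CpG-rich genes. The strongest promoter peak had a median width of 236 bp over the homeobox genes in the WT-labelled list and 324.5 bp in the KO-labelled list, against 320 and 454 bp over all protein-coding genes and 363 and 597 bp over CpG-rich genes. Over the 54 other homeobox genes it was 332 and 331 bp. Over all promoter peaks, not only the strongest per gene, the gap was smaller, with medians of 266.5 and 296 bp against 288 and 334 bp. The whole lists had medians of 260 and 277 bp. A width of 1 kb was reached by 1 of 50 (2%) and 1 of 70 (1.43%) promoter peaks, those of *Irx5* and *Dlx2*, against 1.15% and 5.60% of all promoter peaks.

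**Figure D5:**
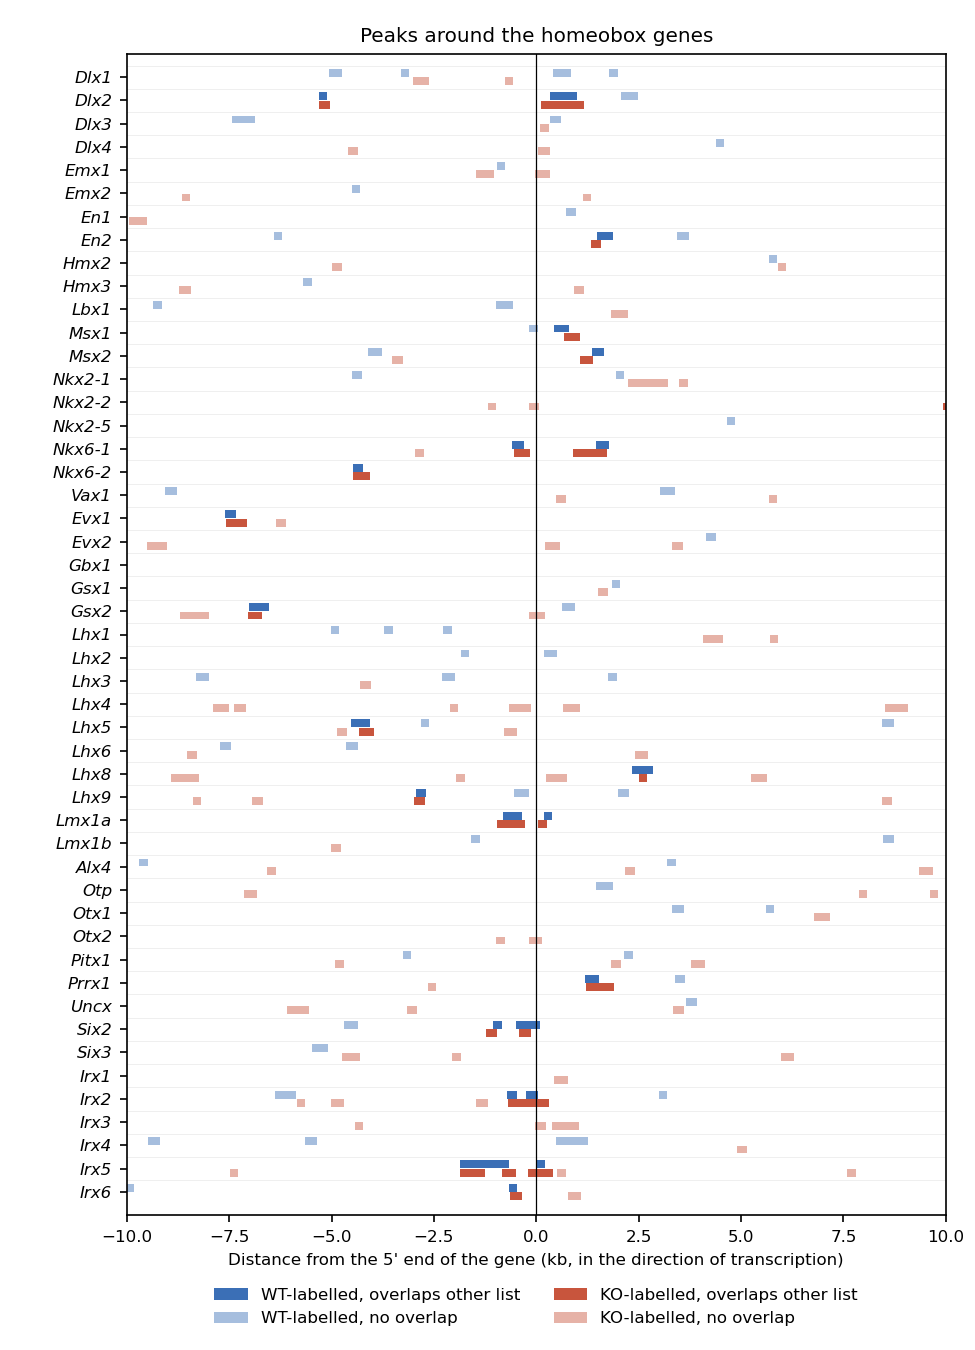
Bars show peaks of both lists by their distance from the 5′ end of each gene, in kb in the direction of transcription, with dark bars for peaks that overlap one of the other list. Most peaks are pale, since 20 of 50 and 20 of 70 promoter peaks overlapped, and few cover the start.

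Over gene bodies and 10 kb upstream the homeobox genes held 114 WT-labelled and 143 KO-labelled peaks, a ratio of 1.25 beside 1.26 over all protein-coding genes. More peaks in the KO-labelled list were found at 24 of the 49 genes (48.98%, against 44.1% of all) and more in the WT-labelled list at 16 (32.7%, against 21.8%), with equal numbers at 9. In promoters the ratio was 1.4, with 50 and 70 peaks, beside 1.25 over all protein-coding genes. At least 2 promoter peaks were present at 12 genes in the WT-labelled list (24.5%, against 27.7% of all) and at 22 in the KO-labelled list (44.9%, interval 30.7% to 59.8%, against 35.5% of all, which lies inside the interval). Per 100 kb of region there were 8.78 and 11.1 peaks, against 4.54 and 5.70 over all protein-coding genes, and the homeobox genes were short, with a median length of 6858 bp against 17425 bp, so that promoters make up more of their regions. Local background at the strongest promoter peaks was over 1.1 times the commonest in 62.9% of the WT-labelled and 60.5% of the KO-labelled homeobox peaks, against 51.6% and 56.8% over all protein-coding genes, and its part in the ranks was not tested.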

How the data were processed

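ATAC-seq peak lists of 1 WT and 1 *Bmi1* KO library were used, grouped by GEO's genotype label. Per the labels and the study's methods, the authors mapped reads to mm10 with BWA and ran MACS2 on each library. The version and options are not given in the sources used here. The fold enrichment in the deposited lists is a ratio, summit pileup over local background, to both of which 1 is added. The deposited −log10 p and −log10 q come from MACS2, and the deposited score was not used. The lists carry no read totals. Summit reads and background were solved from fold enrichment and −log10 p, which matched within 0.001 for 100% of peaks. Genes came from GENCODE vM21 and sequence from GRCm38.p6. Python 3.11.15, numpy 2.4.6, pandas 2.3.3, scipy 1.17.1 and matplotlib 3.10.9 were used, and scripts were tested on simulated data. Overlap was 1 bp or more. Shares have exact binomial 95% intervals, for counting error only.

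The genes and lists were chosen with earlier results of these data known. Values were given for genes whose strongest promoter peak had a −log10 q of at least 5, in each list the 5 genes whose promoter peak was strongest among those not overlapping the other list, genes without a promoter peak, the gene with most peaks in its region in each list and otic epithelium genes. Further members were named, after their values were seen, to account for each class. Alternatives were stricter q, equal peak numbers, other TSS and upstream windows, reciprocal overlap, another scaling of ratios and another CpG window. The CpG-rich comparison and the ranking by summit reads were added after the data were seen.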

Additional observations from a re-analysis of the deposited data

How the results depend on the processing

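No paired analysis was possible because there was 1 library per genotype and no test was made. With a −log10 q of at least 2, genes with a promoter peak were 7 in both lists, 14 in the KO-labelled list only, 3 in the WT-labelled list only and 25 in neither. Over all protein-coding genes 23.3% were then in the KO-labelled list only and 5.09% in the WT-labelled list only, against 28.6% and 6.12% of the 49. The share in both was then 14.3% against 24.0% of all protein-coding genes and that in neither 51.0% against 47.6%, the reverse of the order with all peaks. Shared WT-labelled promoter peaks were then 61.5%, region peaks 23 and 46 (14 and 37 unshared) and the median KO-labelled promoter width 389 bp. With a −log10 q of at least 5, the genes were 1 in both lists, 2 in the KO-labelled list only, 0 in the WT-labelled list only and 46 in neither. No promoter peak (0%) was then shared in either list, region peaks were 1 and 3 (1 and 3 unshared), and median widths were 1203 and 612 bp. A TSS window of 1 kb left 16 genes in both lists (32.7% against 43.4% of all) and 13 in neither (26.5% against 34.0%), and the 5′ end of the gene alone left 7 in neither. Equal numbers of peaks turned the order of genes with a peak in 1 list only, to 8 in the KO-labelled and 9 in the WT-labelled list. With reciprocal overlap of at least 50%, shared promoter peaks were 16.0% and 11.4%. With the TSS of highest value, the median CpG ratio was 0.775. The other 44 values stayed within their spread or within 1.5 times the reported count. Among them were the counts of 8 and 9 and the 14 genes in the KO-labelled list only. The share ranking higher in the KO-labelled list was below that over all protein-coding genes under each alternative run. With equal numbers of peaks it was 58.1% against 67.4%. At a −log10 q of at least 2 it was 70.8% against 72.7%, and at 5 it was 66.7% of 3 genes against 85.2%. The cause of these changes was not tested, beyond the fewer peaks that stricter thresholds leave. What counts as an absent peak is limited by depth, and the WT-labelled list had the lower commonest background.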
